A study of Mus musculus with 6 samples.

Results

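The 9 core subunit genes of cohesin were followed in whole testes of juvenile mice at postnatal day 19. They were taken by symbol from the gene annotation, not by their values, and are 9 of 55487 gene identifiers in the count table. Each of the 9 passed the filter on low counts, as did 19826 genes in all. Testes of 3 control mice were compared with testes of 3 mice of the group labelled dsfb, which by the title of the series is homozygous for SFB alleles of Hormad1 and Hormad2. The strain, the nature of the SFB allele and the genotype of the controls beyond the word control are not given in the labels. Polyadenylated RNA was sequenced, 1 library per animal, so that n = 3 in each group. The values of single genes are in CPM, the reads of a gene relative to the size of its library as scaled by the TMM method of edgeR.

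Cohesin is a ring that holds sister chromatids together and shapes chromatin loops. An SMC1 and an SMC3 protein form the body of the ring, a kleisin closes it and a STAG protein binds the kleisin. Somatic and mitotic cells use SMC1A, SMC3, RAD21 and either STAG1 or STAG2. Germ cells that enter meiosis add SMC1B, the kleisins REC8 and RAD21L, and STAG3, and these complexes form the chromosome axis on which the HORMAD proteins and the synaptonemal complex assemble. SMC3 has no meiotic paralog and belongs to both kinds of complex. Mouse spermatocytes that lack SMC1B, REC8, RAD21L or STAG3 arrest in meiosis.

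The libraries held between 15335130 and 27707291 counted reads, with the control libraries the deeper ones. The marker lists show what kind of testes were compared. While 36.2% of all genes tested fell in dsfb, 10 of 10 markers of later pachytene fell, as did 9 of 9 tested spermatid markers. Their summed level went from 8060 to 11100 CPM in control down to 295 to 327 CPM in dsfb for pachytene, and from 517 to 1210 down to 39.0 to 48.1 CPM for spermatids. None of the matched markers of the 2 lists was at 0 in all libraries of a group, although Adam3, a sperm surface protein, was at a mean of only 0.109 CPM in dsfb. Sertoli markers rose in 10 of 10 cases, with a median log2 fold change of 1.01 and sums of 2110 to 2920 CPM in control against 5000 to 5330 CPM in dsfb. Without control replicate 3 the spermatid median moved from -6.99 to -3.69, over the 7 markers then tested, and without dsfb replicate 3 the spermatid list had 6 falls of 9. Beside 30.7% rises and 36.2% falls over all genes, markers of early meiotic prophase split into 3 rises, 3 falls and 4 that did not pass. That split depended on single libraries and on the scaling, with 4 rises and 5 falls without control replicate 3, 2 rises and 2 falls without dsfb replicate 1, and 5 rises and 2 falls with library size only. Control replicate 3 stood apart from the other controls, with a spermatid sum of 1210 CPM against 517 and 579 CPM and an early prophase sum of 1020 CPM against 1770 and 1830 CPM. In RNA from whole tissue, fewer cells of a type and less RNA per cell cannot be told apart, and this holds for every level given here.

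The cohesin genes did not move as a block. The general subunits Smc1a, Smc3, Rad21 and Stag2 rose in dsfb testes, between 1.41-fold and 2.14-fold, and Stag1 did not pass the test. Among the meiotic subunits, Stag3 fell 1.84-fold and Smc1b fell 1.49-fold, while Rad21l rose 1.95-fold and Rec8 did not pass. Thus 5 of 9 members rose, against 30.7% of all genes tested, and 2 of 9 fell, against 36.2% of all genes (edgeR adjusted p under 0.05). The groups did not overlap in 7 of the 9 genes, which was also the case in 74.7% of all genes tested. The median log2 fold change was 0.68 over the 5 general and -0.08 over the 4 meiotic subunits, beside 0.02 over all genes tested. The meiotic median has no settled sign: it ranged from -0.22 to 0.06 without single libraries and was 0.20 with upper-quartile and 0.32 with library-size scaling. With so large a part of the transcriptome changed, these counts are read as a description of the members and not as particular to cohesin.

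**Figure D1:**
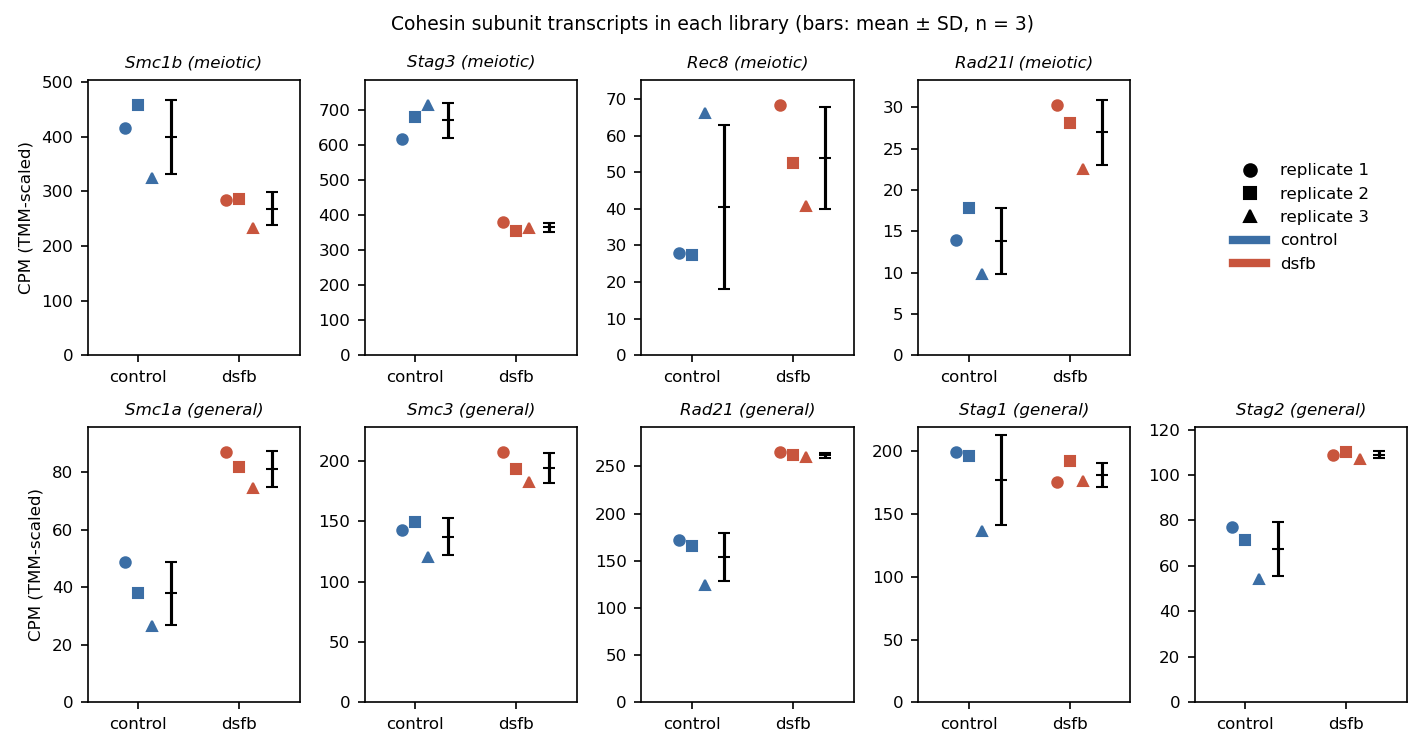
Level of each cohesin subunit gene in the 6 libraries, in CPM on TMM-scaled library sizes; symbols mark the replicate number, blue is control, red is dsfb, and the black bars give mean ± SD of 3 libraries. Stag3 and Smc1b lie lower in every dsfb library, Rad21l and 4 general subunits lie higher, and Rec8 and Stag1 overlap between the groups.

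Stag3 encodes the STAG subunit of meiotic cohesin complexes (ENSMUSG00000036928, GRCm38 chromosome 5, 138280240 to 138312393, plus strand). Its level was 617, 682 and 715 CPM in the control libraries, in the order of their replicate numbers, and 380, 354 and 364 CPM in those of dsfb. Every dsfb library lay below every control, and the dsfb libraries lay close together. The log2 fold change was -0.88 (SE 0.09, n = 3, edgeR adjusted p = 0.000136). Of the members it was the gene with the smallest adjusted p, and its call held under every alternative scaling and without any 1 library.

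Smc1b encodes the meiotic partner of SMC3 (ENSMUSG00000022432, chromosome 15, 85064689 to 85131964, minus strand). It stood at 416, 458 and 325 CPM in control and at 284, 286 and 233 CPM in dsfb. The groups did not overlap, but control replicate 3 was nearer to dsfb than the other controls were. The log2 fold change was -0.58 (SE 0.15, edgeR adjusted p = 0.00922). This call depended on the scaling. With upper-quartile scaling the value was -0.30 (edgeR adjusted p = 0.0989) and with library size only it was -0.19 (edgeR adjusted p = 0.288). Those scalings moved the median of all genes by 0.278 and 0.396, so that Smc1b still lay below the median gene under both.

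Sequences at the RefSeq starts of the genes that fell, Stag3 and Smc1b, are shown. That of Rec8, a meiotic subunit that did not pass the test, is shown beside them. Smc1b carries letters of the E2F type before its start, and Stag3 carries them across its start. Stag1, which did not pass, and Smc1a, which rose, carry the same letters and are not shown. A link between these letters and the falls was not tested. In mouse cells the repressor E2F6 is known to keep Stag3 and Smc1b silent outside the germ line. Each line gives the 250 bases before the start annotated by RefSeq and the first 10 bases after it, 5′ to 3′ on the gene's strand (GRCm38.p6), with motif matches in capitals. The windows are chr5:138280259-138280518 for Stag3 (plus), chr15:85131948-85132207 for Smc1b (minus) and chr14:55617916-55618175 for Rec8 (plus).
Stag3: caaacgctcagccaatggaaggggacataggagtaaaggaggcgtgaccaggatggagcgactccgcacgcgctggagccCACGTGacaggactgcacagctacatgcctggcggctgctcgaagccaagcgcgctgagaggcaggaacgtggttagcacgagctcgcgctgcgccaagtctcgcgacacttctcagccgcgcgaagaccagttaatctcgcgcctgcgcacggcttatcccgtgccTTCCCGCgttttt
Smc1b: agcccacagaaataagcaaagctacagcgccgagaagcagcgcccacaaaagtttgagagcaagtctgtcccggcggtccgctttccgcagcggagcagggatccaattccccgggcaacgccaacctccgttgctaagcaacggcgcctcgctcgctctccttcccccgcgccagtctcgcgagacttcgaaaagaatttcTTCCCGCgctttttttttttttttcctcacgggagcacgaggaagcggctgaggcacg
Rec8: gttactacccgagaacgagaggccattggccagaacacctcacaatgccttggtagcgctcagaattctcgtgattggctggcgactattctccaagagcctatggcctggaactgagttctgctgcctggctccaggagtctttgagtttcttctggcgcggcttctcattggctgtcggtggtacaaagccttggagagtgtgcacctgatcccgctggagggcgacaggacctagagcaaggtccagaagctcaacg

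The capitals in Smc1b are the E2F-type letters TTCCCGC (the reverse complement of GCGGGAA), 48 to 42 bases before the start. The starts of RefSeq and GENCODE differ for some members. For Stag3 the RefSeq start lies 269 bases inside the gene as placed above, so that the whole printed window lies within the GENCODE gene; for Rec8 it lies 129 bases inside and for Stag1 45650 bases. In Stag3 the same letters run across the annotated start, from 3 bases before it to its base 4, and an E-box, CACGTG, lies 170 to 165 bases before it. The 250 bases of Rec8 held none of the 4 motifs searched on both strands, which were the E2F-type and E-box letters above, the MYB-type CAGTTG and the STRA8-type CNCCTCAG. The table held windows for 7 of the 9 members (Stag3, Smc1b, Rec8, Rad21l, Smc1a, Smc3 and Stag1). GCGGGAA or its complement was found within the 250 bases in 2 of these 7, Smc1b and Stag1, and in 3.82% of 32851 promoter windows. Over the whole 300-base windows, a search added after the first was seen, it was found in Stag3, Smc1b, Stag1 and Smc1a and in 4.6% of windows. It therefore stood in genes that fell, in Smc1a, which rose, and in Stag1, which did not pass. CACGTG was found in Stag3 only among the 7 (6.02% of all windows in the 250 bases), CAGTTG in Smc1a only (11.1%) and CNCCTCAG in none (6.42%). The annotated start of Rad21l is the first base of an ATG and its gene model is 1659 bases long. The window before it, which held none of the motifs and 25.6% G and C, may lie away from its promoter. These matches describe letters and not bound sites.

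Rad21l, a kleisin found in germ cells from the start of meiosis to pachytene, went the other way (ENSMUSG00000074704, chromosome 2, 151645404 to 151668533, minus strand). It was at 13.9, 17.8 and 9.78 CPM in control and at 30.3, 28.1 and 22.6 CPM in dsfb. The lowest dsfb library lay above the highest control. The log2 fold change was 0.96 (SE 0.23, edgeR adjusted p = 0.00761), and it was called in every fit, with values from 0.74 without control replicate 3 to 1.35 with library size only.

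Rec8, the kleisin that carries cohesion through the first meiotic division (ENSMUSG00000002324, chromosome 14, 55618037 to 55625395, plus strand), rested on 1 library. It was at 27.9, 27.3 and 66.2 CPM in control and at 68.4, 52.6 and 40.8 CPM in dsfb. Control replicate 3 lay within the dsfb range and the other controls lay below it. With all libraries the log2 fold change was 0.41 (SE 0.36, edgeR adjusted p = 0.341). Without control replicate 3 it was 0.94 (edgeR adjusted p = 4.43e-06), and without any other single library it was between 0.16 and 0.60 and did not pass. That library is also the one with the highest spermatid sum, at 1210 CPM. The part of spermatid RNA in its Rec8 level was not tested.

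Among the general subunits, Rad21, the kleisin of mitotic cohesin (ENSMUSG00000022314, chromosome 15, 51962240 to 51991747, minus strand), was at 172, 166 and 124 CPM in control and at 265, 262 and 260 CPM in dsfb. The dsfb libraries were nearly equal and lay well above the controls. The log2 fold change was 0.77 (SE 0.13, edgeR adjusted p = 0.00124). Smc3, shared by mitotic and meiotic rings (ENSMUSG00000024974, chromosome 19, 53600398 to 53645833, plus strand), had levels of 143, 149 and 120 CPM in control and 207, 193 and 182 CPM in dsfb. Its rise was the smallest of those called, with a log2 fold change of 0.50 (SE 0.11, edgeR adjusted p = 0.00403). The calls of both genes held under every scaling and without any 1 library.

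Smc1a and Stag2 are X-linked. Smc1a, the SMC1 protein of somatic cells (ENSMUSG00000041133, 152016428 to 152062694, plus strand), had levels of 48.9, 38 and 26.6 CPM in control and 87.0, 81.8 and 74.5 CPM in dsfb. Its log2 fold change of 1.1 (SE 0.20, edgeR adjusted p = 0.00218) was the largest of the 9. Stag2, the more abundant STAG of many somatic cells (ENSMUSG00000025862, 42149317 to 42277185, plus strand), reached 77.0, 71.3 and 54.4 CPM in control and 109, 110 and 107 CPM in dsfb. The log2 fold change was 0.68 (SE 0.13, edgeR adjusted p = 0.00244). In both genes the groups did not overlap, and control replicate 3 was the lowest library. Stag2 shares exonic sequence with Gm37564 on the opposite strand, and the sources used here do not give whether reads were counted by strand. Both rises stand on a chromosome where 74.0% of tested genes rose, with a median log2 fold change of 1.03, against 28.9% of autosomal genes. Silencing of the X chromosome at pachytene is a normal step of male meiosis, and the part of the lower pachytene markers in these rises was not tested.

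Stag1, the autosomal STAG of somatic cells (ENSMUSG00000037286, chromosome 9, 100597798 to 100959375, plus strand), showed levels of 199, 196 and 136 CPM in control and 175, 192 and 176 CPM in dsfb. The dsfb libraries lay inside the control range. The log2 fold change of 0.03 (SE 0.15, edgeR adjusted p = 0.868) left the direction undetermined, and it passed only with library size as the sole scaling (0.42, edgeR adjusted p = 0.0456), where the median of all genes lay at 0.412.

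**Figure D2:**
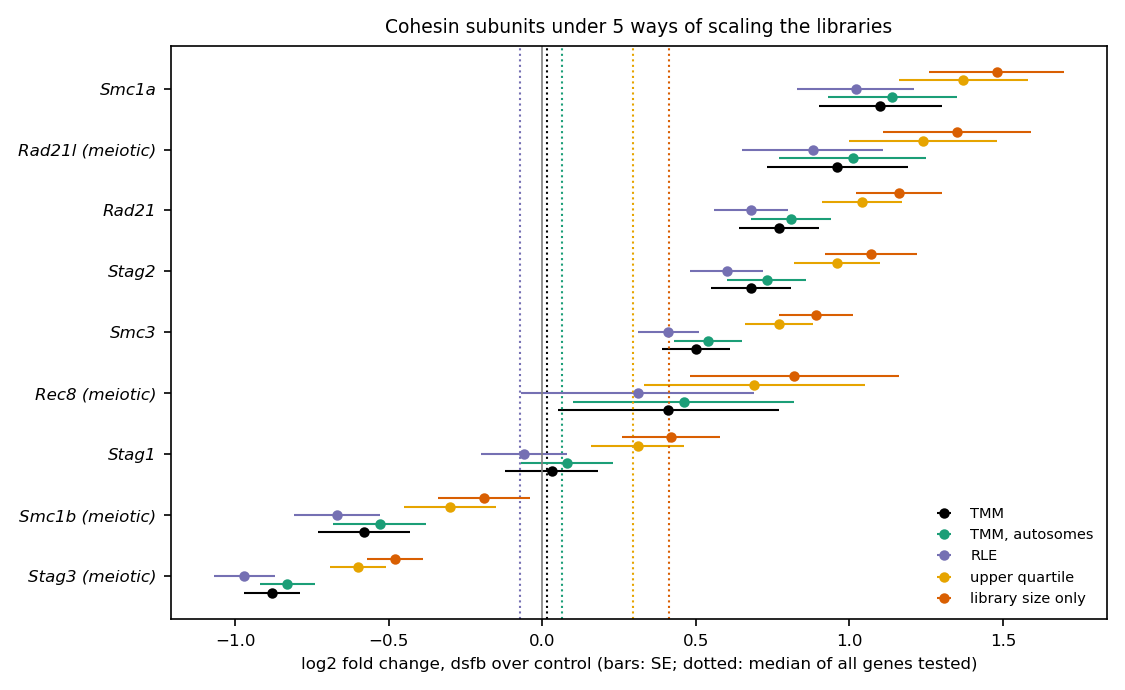
Log2 fold change of each cohesin subunit (dsfb over control, bars are SE) under 5 ways of scaling the libraries, with the median of all tested genes under each as a dotted line of the same colour. Upper-quartile and library-size scaling move all members to the right together; Stag3 stays below 0, at -0.48 or lower, and Smc1a, Rad21l, Rad21, Stag2 and Smc3 stay above 0, at 0.41 or higher, in each of the 5.

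Markers of several cell types rose, as did 4 of the 5 general subunits and the meiotic Rad21l. All 10 Sertoli markers rose, where 30.7% of all genes tested did. Of 10 spermatogonial markers 8 rose and 1 fell (sums of 324 to 441 CPM in control and 558 to 618 CPM in dsfb, median log2 fold change 0.74). The one that fell was Id4, which had the smallest p of the list (log2 -1.52, edgeR adjusted p = 3.98e-05). Gfra1 did not pass (log2 0.02, edgeR adjusted p = 0.942). Of the markers of peritubular myoid cells 3 of 5 rose (190 to 303 against 348 to 475 CPM), or 2 without dsfb replicate 1. Of macrophage markers 4 of 5 rose (42.4 to 67.3 against 85.4 to 135 CPM), or 1 without control replicate 2 or dsfb replicate 3 and 2 without dsfb replicate 1. Of Leydig markers 3 of 6 rose (205 to 365 against 245 to 523 CPM), or 1 without control replicate 2, dsfb replicate 1 or dsfb replicate 3, and 5 without control replicate 3. No marker of these lists was at 0 in all libraries of a group. Their part in the rises of Smc1a, Smc3, Rad21, Stag2 and Rad21l was not tested. Examples were Cldn11, a tight junction protein of Sertoli cells, at a log2 fold change of 1.20 (edgeR adjusted p = 5.56e-05), and Dmrt1, a transcription factor of spermatogonia and Sertoli cells, at 1 (edgeR adjusted p = 0.000394). Beside the meiotic subunits stood the early prophase markers. Dmc1, the meiotic strand exchange protein, rose (log2 1.24, edgeR adjusted p = 0.00128), and Spo11, which makes the meiotic breaks, fell (log2 -2, edgeR adjusted p = 4.43e-06).

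Levels can be compared between genes only per length. In CPM per kb of annotated exon, Stag3 (117 ± 8.71, SD, n = 3) and Smc1b (98.8 ± 16.7) stood at the top in control testes, and their ranges overlapped. Rad21 followed at 36.4 ± 6.12, then Smc3 at 24.8 ± 2.76 and Stag1 at 15 ± 3.01, each apart from the gene before it. From Stag1 down to Rec8 (13.8 ± 7.60), Rad21l (8.34 ± 2.41), Stag2 (8.17 ± 1.42) and Smc1a (6.56 ± 1.93), each neighbour in the order overlapped the next. In dsfb testes Smc1b (66.1 ± 7.49), Stag3 (63.9 ± 2.22) and Rad21 (62.0 ± 0.602) overlapped at the top. Smc3 stood alone at 35.1 ± 2.28. Rec8 (18.4 ± 4.72), Rad21l (16.3 ± 2.39), Stag1 (15.3 ± 0.813), Smc1a (14.1 ± 1.09) and Stag2 (13.1 ± 0.187) overlapped each with the next. The order and its gaps depend on the gene models. With the length of the longest transcript in place of all exons, Stag1 in control was at 28.6 ± 5.74 CPM per kb, level with Smc3 at 28.3 ± 3.15. Stag2 at 11 ± 1.90 then stood above Rad21l at 8.34 ± 2.41. In dsfb Stag3 was then at 78.4 ± 2.73, above Rad21 at 66.3 ± 0.644 and Smc1b at 66.1 ± 7.49. The like level of Stag3 with Rad21 and Smc1b in dsfb thus rests on the lengths used, while Rad21 and Smc1b stayed level with each other.

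**Figure D3:**
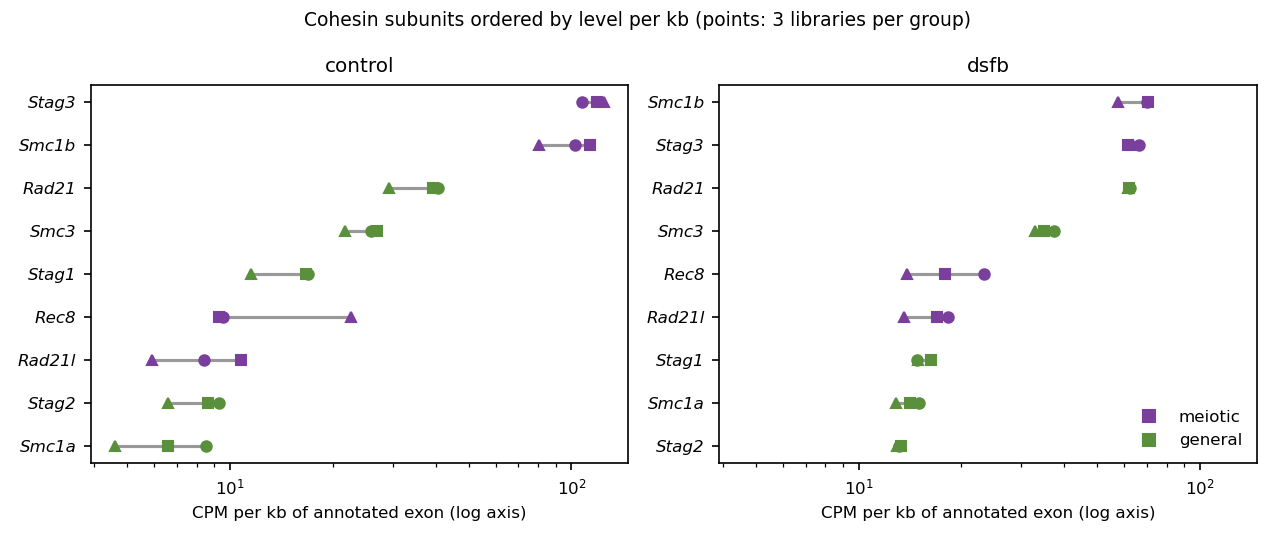
Cohesin subunits ordered by mean level within each group, in CPM per kb of annotated exon on a log axis; points are the 3 libraries (circle, square and triangle for replicates 1, 2 and 3), grey lines their range, purple the meiotic and green the general subunits. In control Stag3 and Smc1b stand apart from all others, and in dsfb Rad21 at 62.0 reaches them with these exon lengths.

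Summed by place in the ring, RNA for the SMC1 position was at 105 ± 18.1 CPM per kb in control and 80.2 ± 8.48 in dsfb. SMC3 was at 24.8 ± 2.76 and 35.1 ± 2.28, the 3 kleisins together at 58.5 ± 0.676 and 96.7 ± 7.60, and the 3 STAG genes together at 140 ± 5.68 and 92.3 ± 1.64. The kleisin sum thus lay higher and the STAG sum lower in every dsfb library than in any control, without a test for these sums. Meiotic genes supplied 72.4% ± 3.36 of the RNA per kb of all 9 subunits in control and 54.1% ± 1.55 in dsfb (SD, n = 3). By position the meiotic share went from 93.8% ± 1.25 to 82.4% ± 0.817 for SMC1 and from 83.4% ± 3.54 to 69.2% ± 1.36 for STAG. Both positions hold an X-linked general gene, Smc1a or Stag2, and the part of this in the shares was not tested. For the kleisins the meiotic share was 37.9% ± 9.95 and 35.6% ± 4.50, a difference smaller than the spread between the controls. The control mean rests on replicate 3, with shares of 30.6%, 33.8% and 49.2% in control and 39.9%, 36.1% and 30.9% in dsfb.

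Ratios between paralogs within a library do not depend on how the libraries are scaled. The log2 ratio of Smc1b to Smc1a, per kb, was 3.6, 4.10 and 4.12 in control and 2.22, 2.32 and 2.15 in dsfb, a 3.27-fold lower mean ratio. The ratio of Stag3 to Stag2 was 3.53, 3.79 and 4.24 in control and 2.33, 2.22 and 2.30 in dsfb, 2.97-fold lower. The ratio of Stag3 to Stag1 was 2.67, 2.84 and 3.43 in control and 2.16, 1.92 and 2.09 in dsfb, 1.90-fold lower. In these 3 ratios every dsfb library lay below every control. An exact permutation test, two-sided, gave p = 0.1 for each, the smallest that 3 against 3 allows (0.2 adjusted over 6 ratios). Smc1a and Stag2 are X-linked, and X-linked genes had a median log2 fold change of 1.03, against -0.0293 over autosomal genes. Stag3, Smc1b and Stag1 are autosomal. The part of the X chromosome in these ratios was not tested.

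The kleisin ratios overlapped between the groups. The log2 ratio of Rad21l to Rad21 was -2.27, -1.87 and -2.32 in control and -1.78, -1.87 and -2.17 in dsfb (exact permutation p = 0.2, 0.3 adjusted). That of Rec8 to Rad21 was -2.10, -2.07 and -0.38 against -1.43, -1.79 and -2.15 (exact permutation p = 0.8), and that of Rad21l to Rec8 was -0.18, 0.20 and -1.94 against -0.35, -0.08 and -0.03 (exact permutation p = 0.8). The outlying values of both Rec8 ratios belong to control replicate 3. Without it their group difference changed sign, from -0.27 to 0.30 for Rec8 to Rad21 and from 0.48 to -0.16 for Rad21l to Rec8. Rad21 and Rad21l, both autosomal, lay higher in dsfb side by side, where the SMC1 and STAG pairs parted. Of the genes in those pairs Smc1a and Stag2 are X-linked. Stag3 and Stag1 are both autosomal, and their ratio was also lower in dsfb, by 1.90-fold. The part of X linkage in this contrast was not tested.

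**Figure D4:**
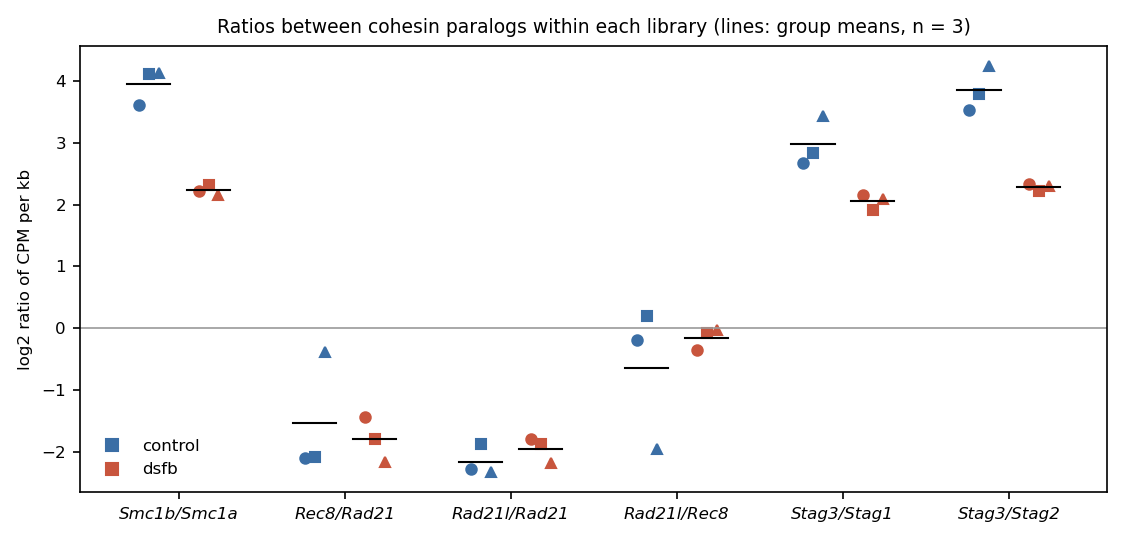
Log2 ratios of CPM per kb between cohesin paralogs in each library; blue is control, red is dsfb, symbols mark replicates 1 (circle), 2 (square) and 3 (triangle), and lines are group means. The SMC1 and STAG ratios are lower in every dsfb library, and the 3 kleisin ratios overlap, with control replicate 3 at -0.38 for Rec8 to Rad21.

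Genes with the profile most like each meiotic subunit over the 6 libraries were found by the Euclidean distance between log2 CPM profiles centred on their own mean. For Stag3 they were Atp2b4 (distance 0.061), Tmem231 (0.065) and Trim39 (0.067), and for Smc1b Matr3 (0.112), Zfp612 (0.116) and Tmem209 (0.118). For Rad21l they were Msrb2 (0.197), Stra8 (0.198), which encodes the retinoic acid-induced factor of meiotic entry, and Chp2 (0.202). For Rec8 they were Gsg1l (0.239), Tuba4a (0.397) and Apoc1 (0.420), farther off than for the other subunits. Gsg1l, at 0.66 to 1.72 CPM, and Apoc1, at 0.66 to 1.52 CPM, lay near the search's minimum mean of 1 CPM. Stra8 was at 51.0, 57.3 and 31.3 CPM in control and 106, 91.9 and 70.1 CPM in dsfb. All these profiles share the same 6 libraries and 2 groups.

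The factors that load, remove, acetylate and cut cohesin also moved in both directions. Of 6 genes of loading and release 3 fell and 1 rose, where 36.2% and 30.7% of all genes did. With library size only 2 fell and 3 rose, and the median went from -0.31 to 0.09. Nipbl, the cohesin loader, was at 684, 760 and 659 CPM in control and 221, 231 and 207 CPM in dsfb, a fall of 3.19-fold (log2 -1.68, SE 0.10, edgeR adjusted p = 5.72e-06). Its partner in the loading complex, Mau2, rose from 140 ± 6.30 to 175 ± 0.849 CPM (log2 0.33, edgeR adjusted p = 0.00610), a call lost when genes of low count were kept in (edgeR adjusted p = 0.0607). Wapl, which opens the ring and releases cohesin, fell 1.62-fold from 365 ± 16.8 to 226 ± 8.44 CPM (edgeR adjusted p = 0.000216). Cdca5, which encodes sororin, the antagonist of WAPL, fell 1.49-fold (edgeR adjusted p = 0.0105), or by 0.17 on the log2 scale with library size only (edgeR adjusted p = 0.296) and by 0.29 with upper-quartile scaling (edgeR adjusted p = 0.105).

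Of 8 genes of acetylation and establishment 2 rose, 2 fell and 4 did not pass, where 30.7% of all genes rose and 36.2% fell. Chtf8, among those that did not pass, is a symbol carried by 2 identifiers. The first was used, at 1.68 ± 0.37 CPM in control and 1.76 ± 0.837 CPM in dsfb. With library size only or upper-quartile scaling 5 rose and 1 fell (medians 0.63 and 0.51 in place of 0.23), and 3 rose without control replicate 3. X-linked Hdac8, the deacetylase that recycles SMC3, rose 2.51-fold from 3.44 ± 0.174 to 8.67 ± 0.109 CPM (edgeR adjusted p = 0.000466). Wdhd1, a replication fork protein, rose 1.62-fold (edgeR adjusted p = 0.00192), with exons shared with a gene on the opposite strand. Ddx11, a helicase of cohesion establishment, fell 2.30-fold from 59.0 ± 4.29 to 25.6 ± 0.942 CPM (edgeR adjusted p = 3.89e-05). Esco1, an acetyltransferase of SMC3, fell 1.38-fold with an edgeR adjusted p of 0.0460, a call lost under 9 of 15 alternatives, among them the removal of control replicate 1 or 2 or of any dsfb library (edgeR adjusted p = 0.0662 to 0.158).

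Of 9 tested genes of cohesin protection and cleavage 6 fell and 2 rose (median log2 fold change -1.21). Over all genes tested 36.2% fell and 30.7% rose. Haspin, the histone H3 kinase of centromeres, was at 407, 475 and 631 CPM in control and at 8.77, 7.16 and 7.81 CPM in dsfb, 63.6-fold lower (log2 -5.99, SE 0.21, edgeR adjusted p = 4.68e-07). Meikin, the meiosis-specific kinetochore protein that protects centromeric cohesion, fell 6.01-fold from 33.7 ± 4.29 to 5.61 ± 1 CPM (edgeR adjusted p = 1.78e-05). Pttg1, the securin that holds separase inactive, fell 3.54-fold (edgeR adjusted p = 1.70e-06), and Espl1, separase itself, 2.31-fold from 242 ± 12.1 to 105 ± 4.93 CPM (edgeR adjusted p = 1.37e-05). Chosen for mention by their values, the genes that rose were Ppp2r1a, a scaffold subunit of phosphatase PP2A (log2 0.92), and Sgo1, a shugoshin (log2 0.62, edgeR adjusted p = 0.0392). This list had 1 rise in place of 2 without control replicate 2, without any 1 dsfb library, with RLE scaling, with no filter and after thinning.

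Of 4 partners on the chromosome axis 2 fell, where 36.2% of all genes did. Sycp2 fell 2.35-fold (edgeR adjusted p = 0.00118) and Hormad2 1.95-fold. By the title of the series, Hormad1 and Hormad2 are themselves the genes with SFB alleles in dsfb. The part of these alleles in their counted reads was not tested. Hormad1 and Sycp3, at log2 fold changes of -0.69 and -0.45, did not pass with all libraries (edgeR adjusted p = 0.0597 and 0.149) and did without control replicate 3 (-1.02 and -0.75, edgeR adjusted p = 1.57e-10 and 1.27e-08). Hormad1 also passed with RLE scaling, no filter, the replicate block, thinning and DESeq2, and Sycp3 with DESeq2. Of 8 tested regulators of meiotic genes 3 rose and 4 fell, where 30.7% and 36.2% of all genes did. Tcfl5 and Mybl1, transcription factors of pachytene spermatocytes, fell 5.80-fold and 2.21-fold, and Pcgf6 and L3mbtl2, partners of E2F6 in a repressive Polycomb complex, fell 3.42-fold and 1.59-fold (edgeR adjusted p = 9.43e-07, 0.000936, 5.87e-06 and 0.000958). The genes that rose, chosen for mention by their values, were E2f6 (log2 0.63), Mga (0.46) and Stra8 (0.94), with 2 rises without dsfb replicate 1 or 2 or with no filter. The median of this list was -0.20, and 0.19 with library size only. Of the CTCF genes, whose proteins halt cohesin at loop anchors or, for Ctcfl, act in the germ line, Ctcfl rose (log2 0.70, edgeR adjusted p = 0.0238), a call lost without control replicate 1 or 2, without dsfb replicate 1 or 2 and with no filter. Ctcf was at 66.7 ± 7.54 and 78.9 ± 1.53 CPM (edgeR adjusted p = 0.0652). It passed as a rise with autosomal TMM, upper-quartile and library-size scaling (edgeR adjusted p = 0.0376, 0.00293 and 0.00167). Under the other alternatives Ctcf did not pass. Ctcf, Ctcfl, L3mbtl2, Tcfl5 and Sycp3 have exons that overlap a gene of the other strand.

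**Figure D5:**
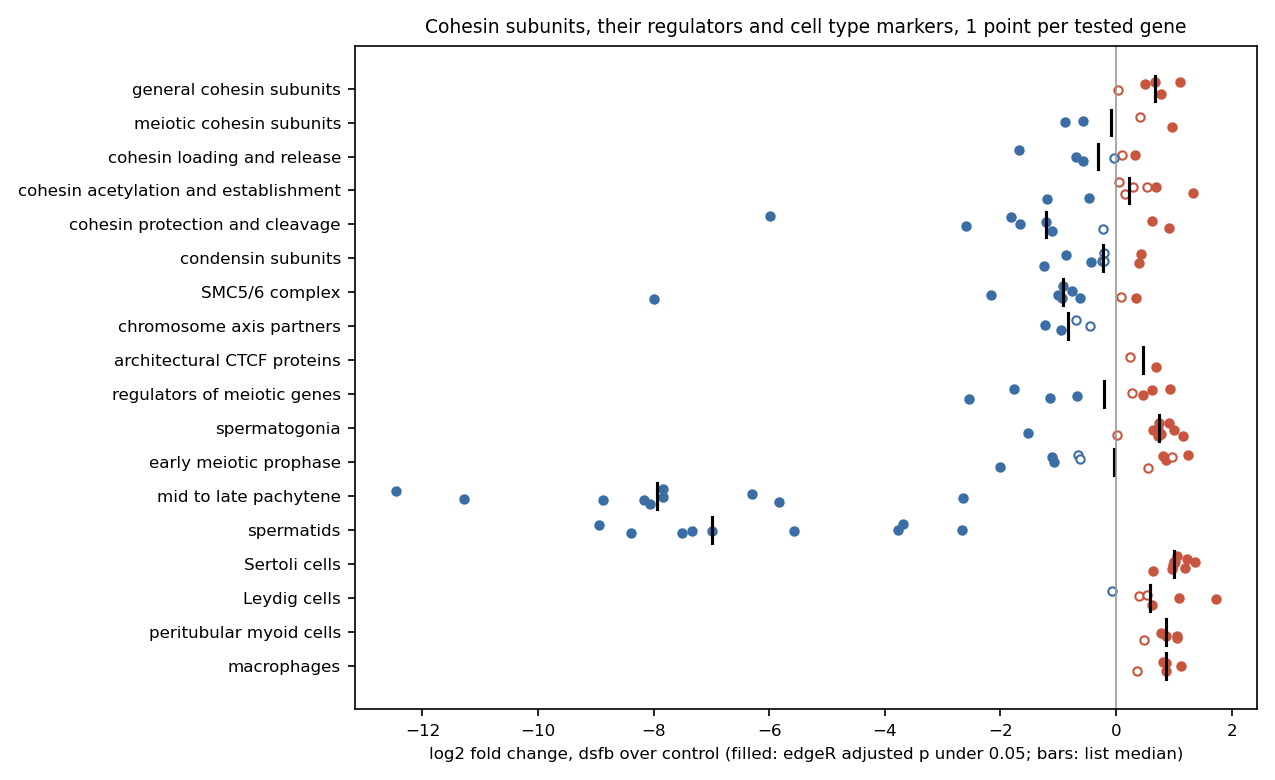
Log2 fold change (dsfb over control) of each tested gene in the cohesin subunits, in lists of their regulators and in cell type markers; filled points passed edgeR at an adjusted p under 0.05, red points are above 0, blue below, and bars are list medians. The subunits lie between -0.88 and 1.1, within the span of the early prophase markers (-2 to 1.24); the Sertoli markers lie between 0.64 and 1.37, above 5 of the 9 subunits, and the pachytene and spermatid markers have medians of -7.95 and -6.99.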

How the data were processed

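Per the labels' protocols, testes of postnatal day 19 mice gave polyadenylated RNA, and the library kit was NEBNext Ultra. The authors deposited raw counts per gene (unit counts), 1 column per library, and all 6 columns were used. The submitters' processing notes name STAR 2.6.0 and mm10. The tool, annotation and strand setting used to count reads were not given in the sources used here. Symbols, positions and exon lengths came from GENCODE M21 (GRCm38), where 260 identifiers were not found.

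Counts were fitted with edgeR 4.0.16 in R 4.3.3 (filterByExpr, TMM, quasi-likelihood test, group as the only term, prior count 0.125), with Benjamini-Hochberg adjustment over all 19826 genes tested. The SE was taken as |log2 fold change| divided by √F. The fit was first tested on simulated counts. Ratios were compared by exact permutation of libraries with scipy 1.17.1. Length is the union of annotated exons.

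The members and lists were chosen with earlier results of these data known. The rule for naming took all members, up to 4 genes of each pathway list by smallest p, up to 3 markers of a marker list, and the 3 nearest profiles of each meiotic subunit (mean of at least 1 CPM, log2 of CPM plus 0.1). Of 122 listed symbols 121 matched. Promoters are from RefSeq (GRCm38.p6). Alternatives were RLE, upper-quartile, library-size and autosomal TMM scaling, other filters, DESeq2 1.42.0, leaving out each library and a replicate block, and thinning to the smallest library, which was added later. A comparison of protein sequences was not made.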

Additional observations from a re-analysis of the deposited data

How the results depend on the processing

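The calls of Stag3, Smc1a, Smc3, Rad21, Rad21l and Stag2 kept their direction and passed under each of the 15 alternatives. Smc1b did not pass with upper-quartile scaling (-0.30) or library size only (-0.19), and ranged from -0.74 to -0.47 without single libraries. Rec8 ranged from 0.16 to 0.94 without single libraries and passed without control replicate 3. Stag1 turned to -0.06 with RLE scaling and with DESeq2 and to -0.05 with no filter on low counts, passed with library size only (0.42), and ranged from -0.16 to 0.10 without single libraries. The difference of the Rec8 to Rad21 ratio ranged from -0.56 to 0.30 and that of Rad21l to Rec8 from -0.16 to 0.90 without single libraries. The meiotic share of RNA per kb in dsfb was 52.0% with the longest transcript as length. Over all genes 6080 rose and 7176 fell, and with library size only 8936 rose and 5732 fell, since the median of all genes moved by 0.396. Of 450 values of 30 named list genes under alternatives 419 kept call and direction, 20 lost the call and 11 gained it. The cause of these changes was not tested, beyond the shift of the median that a scaling brings by construction.

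The labels state no pairing of same-numbered libraries, and whether such libraries share a litter or batch is not given. Their deviations from the group means correlated at 0.0835, 0.074 and 0.142, and each library correlated best with its own number. Pairs of other numbers correlated at -0.133 to 0.0651. With a replicate block 6228 genes rose and 7203 fell, and no member changed its call. Stag3 was at -0.87, Smc1b at -0.57 and Rec8 at 0.52 with the block. The SE of Smc1b was 0.09 with the block and 0.15 without it, and that of Stag3 was 0.10 and 0.09. Depth limits the members little, since each had at least 212 counts in every library.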

Other observations

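Of 9 genes of the SMC5/6 complex, which acts in DNA repair, 7 fell and 1 rose, where 36.2% and 30.7% of all genes did. None rose without dsfb replicate 1 or 2 or with no filter. The median log2 fold change was -0.92, or -0.52 with 5 falls under library size only. Eid3, the germ line paralog of a non-SMC subunit, was at 255, 291 and 391 CPM in control and at 0.659, 1.49 and 1.56 CPM in dsfb (log2 -7.99, SE 0.31, edgeR adjusted p = 6.78e-07). Its ubiquitous paralog Nsmce4a, named after its values were seen, was at 68.0 ± 9.26 and 72.3 ± 1.08 CPM (edgeR adjusted p = 0.506). Nsmce1, the RING subunit, fell 4.49-fold, Smc6 2.01-fold and Smc5 1.91-fold (edgeR adjusted p = 5.71e-06, 0.000274 and 0.000158).

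Of 8 condensin genes, whose complexes compact chromosomes for division, 3 fell and 2 rose (median -0.23, or 0.16 with library size only). Over all genes tested 36.2% fell and 30.7% rose. Smc4 fell 2.38-fold from 969 ± 182 to 407 ± 25.1 CPM (edgeR adjusted p = 0.000235), while its partner Smc2 was at 108 ± 17.3 and 90.6 ± 4.73 CPM (edgeR adjusted p = 0.114; named after its values were seen). Ncapg fell 1.82-fold and Ncaph2 rose 1.34-fold. Ncaph fell 1.35-fold (edgeR adjusted p = 0.0120), a call lost with library size only (edgeR adjusted p = 0.776), with upper-quartile scaling (0.265) and without dsfb replicate 2 (0.0575). The list had 6 falls without control replicate 3, 5 with RLE scaling and 2 without dsfb replicate 2, and 1 rise without dsfb replicate 1 or 2.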
